A study of Drosophila simulans with 22 samples.

Results

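RNA 5′ ends were compared between Drosophila simulans embryos at 6-9 h and at 3-6 h after egg laying, hours described here as the passage from gastrula to extended germ band. The comparison was defined by staging time alone and took 6 of the 22 samples of a developmental series: 6-7 h, 7-8 h and 8-9 h in the later block, against 3-4 h, 4-5 h and 5-6 h in the earlier block. All samples were whole embryos of the w[501] strain, which provided the reference genome, with no treatment and no further allele. Embryos from population cages were pooled over laying windows of 1 h and then aged. Each hour was measured once, so that neighbouring hours of a block stand in for replicates, and p-values measure only the spread between neighbouring hours.

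RAMPAGE, the assay used, sequences cDNAs that reach the capped 5′ end of an RNA, so that each read gives the base at which transcription began. Read starts that pile up over a short stretch are joined into a transcription start site cluster, or TSC, taken here as 1 promoter. Values are RPM, the reads of a TSC scaled to a total of 1000000 reads in TSCs per sample. In these bulk samples, fewer cells of a type and less RNA per cell cannot be told apart.

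In Drosophila melanogaster, the closely related species in which these stages are best known, gastrulation moves mesoderm and endoderm into the embryo, and the germ band, the tissue that forms the segmented trunk, then lengthens by cell rearrangement and folds over the dorsal side. During germ band extension, segment polarity genes hold the segment borders, neuroblasts leave the ectoderm to form the nervous system, and tissue specification programmes start. Many, but not all, of the RNAs loaded by the mother are cleared by then. Short-lived zygotic RNAs of the cellular blastoderm, such as those that pattern the segments, fade. This background could not be tied to single members, because the deposited tables give gene numbers without names, and 0 of the 9322 that the TSC list uses were found in the reference table. Stage markers could therefore not be checked, and TSCs are given below by position on the FlyBase r1.4 genome, counted from 1.

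Sequencing depth was 8500184, 2528270 and 14760922 reads in TSCs at 6-7, 7-8 and 8-9 h, against 6743247, 2870675 and 1576683 reads at 3-4, 4-5 and 5-6 h. A single read was worth between 0.0677 and 0.396 RPM at 6-9 h, and between 0.148 and 0.634 RPM at 3-6 h. Of the 25410 TSCs in the list, 8003 had a mean of at least 5 RPM over the 6 samples and were tested. Spearman correlation over these TSCs was between 0.874 and 0.926 for pairs of hours within 6-9 h and between 0.877 and 0.924 for pairs within 3-6 h. Pairs that crossed the blocks ran from 0.934 for 6-7 h with 5-6 h down to 0.691 for 8-9 h with 3-4 h. The hours on either side of the boundary were thus the most alike of all pairs.

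With RPM as the scale, more promoters were called higher than lower at 6-9 h. The log2 fold change of RPM + 1, 6-9 h minus 3-6 h, was tested with limma, and 663 TSCs, or 8.28% of those tested, passed a Benjamini-Hochberg adjusted p of 0.05. Of these, 494 TSCs rose (6.17% of those tested) and 169 fell (2.11%). In the TSCs that rose the median log2 fold change was 2.48, in those that fell it was -1.87, and over all tested TSCs it was 0.11. At least a 4-fold change on this scale was reached by 359 of the TSCs that rose and by 74 of those that fell, and at least an 8-fold change by 134 and by 20. In all 663 TSCs the 3 samples of 6-9 h lay wholly above or wholly below the 3 samples of 3-6 h, which was also the case for 34.3% of all tested TSCs.

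**Figure D1:**
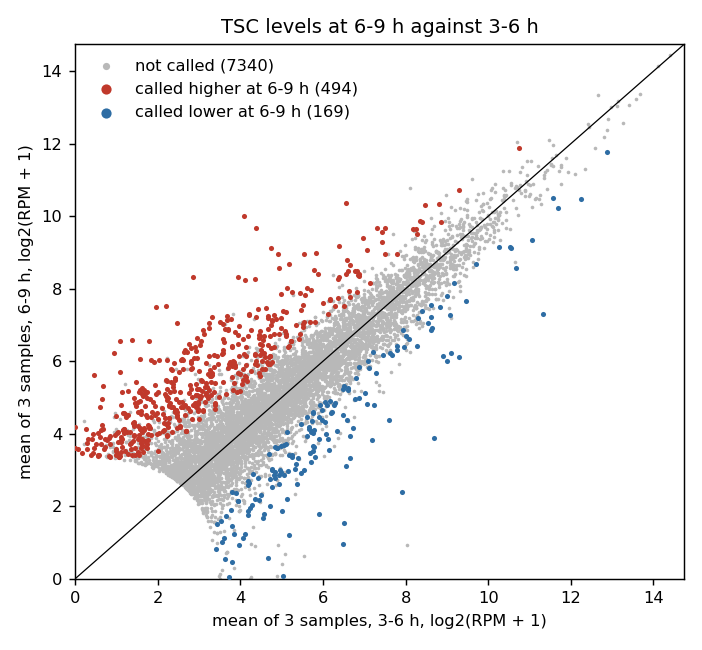
Each point is 1 of 8003 tested TSCs, with its mean level at 6-9 h on the vertical axis and at 3-6 h on the horizontal axis, both as log2(RPM + 1) of the mean RPM of 3 samples. The 494 TSCs called higher lie above the line of equal levels and the 169 called lower lie below it, and called TSCs are found from weak to strong levels.

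The excess of rising over falling TSCs depended in part on the scaling. With RPM, 74.5% of the calls were higher at 6-9 h. TMM factors, which correct for library composition, were between 1.03 and 1.06 at 6-9 h and between 0.903 and 1.01 at 3-6 h. Scaling by them moved the median log2 fold change of all tested TSCs by -0.11, to -0.00412, so that its upward shift was no longer seen. After TMM scaling 452 TSCs rose and 227 fell, so that 66.6% of 679 calls were higher. With DESeq2 the median was -0.0318, and 56.4% of 1515 calls were higher. Leaving out 1 hour changed the count of calls far more. Without 6-7 h limma called 1075 TSCs and without 5-6 h it called 1066. Without any single one of the other 4 hours it called 0, with between 1465 and 1729 TSCs at an unadjusted p under 0.05, and edgeR on the same reads also called 0, with 1456 to 1760 such TSCs. In each of the 6 limma fits, every one of the calls that could be tested again kept its direction and an unadjusted p under 0.05, for example 638 of 638 TSCs without 7-8 h. The calls came from these same samples, with blocks that did not overlap. Their direction could therefore not change in these fits, and the result is no separate check of the calls.

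The largest rise was at a TSC on the plus strand of chromosome X (X:1289179-1289255, 77 bp), assigned by the authors to gene FBgn0188184. It gave 106, 827 and 2157 RPM at 6-7, 7-8 and 8-9 h, against 3.41, 10.5 and 34.2 RPM at 3-4, 4-5 and 5-6 h. Its level climbed at every hour, and the 8-9 h sample held its highest value of the whole series. The log2 fold change was 5.57 ± 1.07 (SE, n = 3 and 3 samples; limma adjusted p = 0.0284). A TSC on the plus strand of chromosome 3L (3L:15307432-15307523, gene FBgn0186263) gave 55.8, 274 and 224 RPM at 6-7, 7-8 and 8-9 h, against 2.97, 6.62 and 1.27 RPM at 3-4, 4-5 and 5-6 h. Here the whole of the rise fell between 5-6 h and 7-8 h, with no lasting increase among the earlier hours, and the log2 fold change was 5.22 ± 0.65 (SE, limma adjusted p = 0.0231). The 5-6 h value was only 2 reads, under a floor of 3 reads, so the dip at that hour is uncertain.

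Several TSCs started from near the limit of detection. The TSC at 2R:7271455-7271651 on the plus strand had 1 read in each of the 3-4, 4-5 and 5-6 h samples and 0 RPM at 0-3 h, against 69, 151 and 1133 reads, or 8.12, 59.7 and 76.8 RPM, at 6-7, 7-8 and 8-9 h. Its level before 6 h was under the floor of 3 reads in each sample, so its fitted log2 fold change of 4.68 depends on the pseudocount of 1 RPM. At 2L:5879972-5880054 on the plus strand the values were 14.8, 52.2 and 212 RPM at 6-7, 7-8 and 8-9 h, against 0.741, 1.39 and 1.27 RPM at 3-4, 4-5 and 5-6 h. This TSC continued to 443 RPM at 9-10 h, its highest hour. The TSC at 2R:16633236-16633381 on the minus strand gave 20.47, 101 and 164 RPM at 6-7, 7-8 and 8-9 h, against 1.04, 2.44 and 1.27 RPM at 3-4, 4-5 and 5-6 h, and averaged 59.1 RPM at 9-12 h. At this TSC and at 2L:5879972-5880054 the 5-6 h value of 1.27 RPM was 2 reads, also under the floor.

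The other TSCs with the highest levels among those that rose at least 4-fold were well above the floor at 3-6 h. The TSC at 2L:18007522-18007759 on the plus strand gave 507, 1339.6 and 2113 RPM at 6-7, 7-8 and 8-9 h, against 37.5, 80.1 and 164 RPM at 3-4, 4-5 and 5-6 h, a log2 fold change of 3.82 ± 0.62 (SE, limma adjusted p = 0.0231). It averaged 2503 RPM at 9-12 h, above every one of the 6 hours. A TSC at 3R:25168350-25168676 on the plus strand gave 798, 849 and 799 RPM at 6-7, 7-8 and 8-9 h, against 81.7, 69.7 and 323 RPM at 3-4, 4-5 and 5-6 h. The later block was flat, the 5-6 h sample was intermediate, and the mean of 313 RPM at 9-12 h was below each of these later values. Neither this TSC nor the next one was called in a fit of all 22 samples (limma adjusted p = 0.177 and 0.129). By contrast, a TSC at X:15219848-15220060 on the minus strand was lower at 3-6 h than before and after. It gave 399.5, 928 and 1128 RPM at 6-7, 7-8 and 8-9 h, against 204, 117 and 221 RPM at 3-4, 4-5 and 5-6 h. Its mean level by block was 370 RPM in the 0-3 h samples, 181 RPM in those of 3-6 h, 819 RPM in those of 6-9 h and 1403 RPM in those of 9-12 h.

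**Figure D2:**
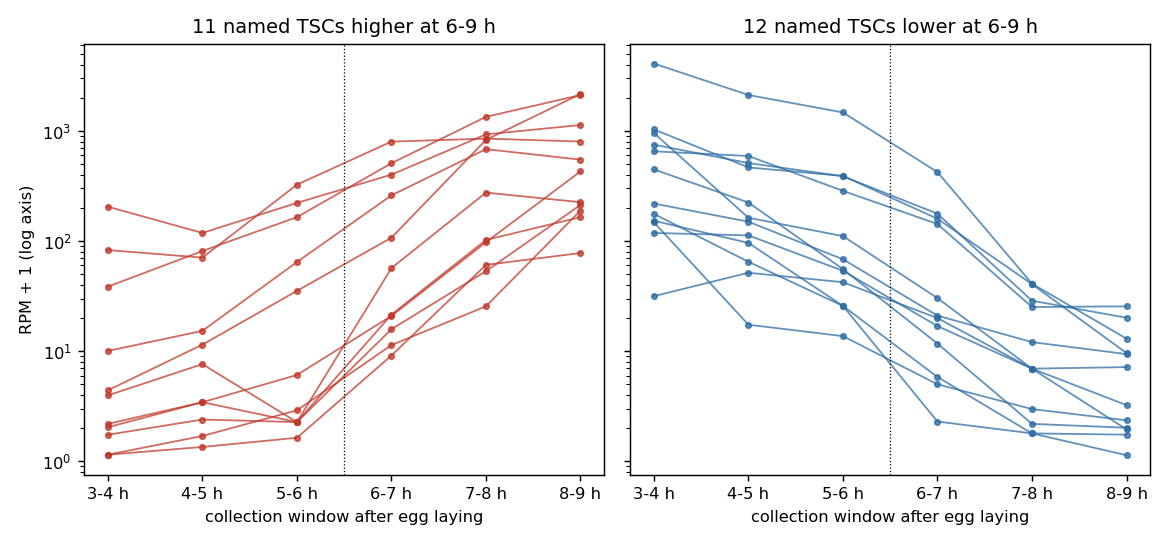
Lines give RPM + 1 on a log axis at each of the 6 hours for the 11 named TSCs that were higher (left panel) and the 12 that were lower (right panel) at 6-9 h, with a dotted line between 3-6 h and 6-9 h. All 11 lie higher at each hour after the dotted line than at any hour before it, and all 12 lie lower. This separation holds for all 663 called TSCs and so follows from the choice among them. Means at 6-9 h run from 48.2 to 1320.0 RPM on the left and from 0.943 to 158 RPM on the right.

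Among the TSCs that fell, the largest change was at 3L:19860089-19860176 on the minus strand (88 bp, gene FBgn0183916). It gave 10.7, 1.19 and 1.02 RPM at 6-7, 7-8 and 8-9 h, against 445, 223 and 54.5 RPM at 3-4, 4-5 and 5-6 h, a log2 fold change of -5.57 ± 0.86 (SE, limma adjusted p = 0.0231). The level dropped at every hour. It had averaged 49.6 RPM at 0-3 h, and at 9-12 h it averaged 0.152 RPM, so that activity was centred on 3-6 h. The strongest TSC that fell at least 4-fold, at 3R:13178744-13179046 on the plus strand (gene FBgn0192044), gave 421, 39.9 and 12.0 RPM at 6-7, 7-8 and 8-9 h, against 4082, 2115 and 1468 RPM at 3-4, 4-5 and 5-6 h. Its log2 fold change was -5.26 ± 1.06 (SE, limma adjusted p = 0.0306). With edgeR on recovered reads the call was lost (log2 fold change -4.16, adjusted p = 0.0702). The largest loss in RPM came between 3-4 h and 4-5 h, and the largest on the log2 scale between 6-7 h and 7-8 h.

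Other falling TSCs had low levels by 8-9 h. RAMPAGE counts the 5′ ends of RNA present in the embryo, so that less transcription and loss of RNA cannot be told apart. At X:5272152-5272210 on the plus strand the values were 4.82, 0.791 and 0.135 RPM at 6-7, 7-8 and 8-9 h, against 152, 95.1 and 24.7 RPM at 3-4, 4-5 and 5-6 h, and the mean at 9-12 h was 0 RPM. This TSC had 2 reads at 7-8 h and 2 reads at 8-9 h, under the floor of 3 reads. A TSC at 3R:20835397-20835659 on the plus strand gave 29.3, 5.93 and 6.17 RPM at 6-7, 7-8 and 8-9 h, against 954, 162 and 110 RPM at 3-4, 4-5 and 5-6 h. At 3R:23492660-23492801 on the minus strand the values were 15.9, 5.93 and 0.948 RPM at 6-7, 7-8 and 8-9 h, against 117, 112 and 52.6 RPM at 3-4, 4-5 and 5-6 h. In each of these TSCs the 3-4 h sample held the highest value of the whole series.

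Not every falling TSC had its maximum at 3-6 h. The TSC at 2L:1492993-1493123 on the minus strand reached 7408 RPM at 2-3 h, before the compared hours, and gave 158, 39.6 and 8.60 RPM at 6-7, 7-8 and 8-9 h, against 1029, 465 and 389 RPM at 3-4, 4-5 and 5-6 h. With edgeR its call was lost (adjusted p = 0.0675). A TSC at 3L:19277451-19277725 on the minus strand was highest at 0-1 h with 903 RPM and gave 142, 24.1 and 24.5 RPM at 6-7, 7-8 and 8-9 h, against 651, 590.5 and 284 RPM at 3-4, 4-5 and 5-6 h. Its mean then came back to 144 RPM at 9-12 h, against 63.4 RPM at 6-9 h. The last of the named TSCs with high levels, 19 bp wide at 3L:14255450-14255468 on the minus strand, was again highest at 3-4 h. It gave 176, 27.7 and 19.1 RPM at 6-7, 7-8 and 8-9 h, against 748, 509 and 386 RPM at 3-4, 4-5 and 5-6 h. Its call was lost with edgeR (adjusted p = 0.0615).

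The hours outside the comparison, which entered no test, place these changes in the course of development. In TSCs called higher, the median of the block means was 2.32 RPM for 0-3 h, 6.28 RPM for 3-6 h, 40.7 RPM for 6-9 h and 59.3 RPM for 9-12 h. Most kept rising, since 342 of the 494 (69.2%) had a higher mean at 9-12 h than at 6-9 h, against 41.7% of all tested TSCs. Their highest hour of the series fell at 6-9 h for 130 TSCs, at 9-12 h for 196 and at 12-22 h for 122. For the remaining 46 TSCs it fell at 0-3 h, and 160 of the 494 (32.4%) had a higher mean at 0-3 h than at 3-6 h, against 48.7% of all tested TSCs. The choice of calls keeps their highest hour out of 3-6 h, and highest hours were not counted over all tested TSCs.

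In TSCs called lower, the median of the block means was 40.4 RPM for 0-3 h, 53.7 RPM for 3-6 h, 13.8 RPM for 6-9 h and 8.41 RPM for 9-12 h. Of the 169, 102 had their highest hour at 3-6 h and 58 at 0-3 h, where the choice of calls favours 3-6 h and excludes 6-9 h. The mean at 9-12 h was lower than that at 6-9 h in 130 TSCs (76.9%) and higher in 39 (23.1%). Over all tested TSCs these shares were 58.2% and 41.7%. A mean at 9-12 h above that at 3-6 h was found in 6 of the 169 (3.55%), which were called for their high level at 3-6 h, against 49.3% of all tested TSCs.

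**Figure D3:**
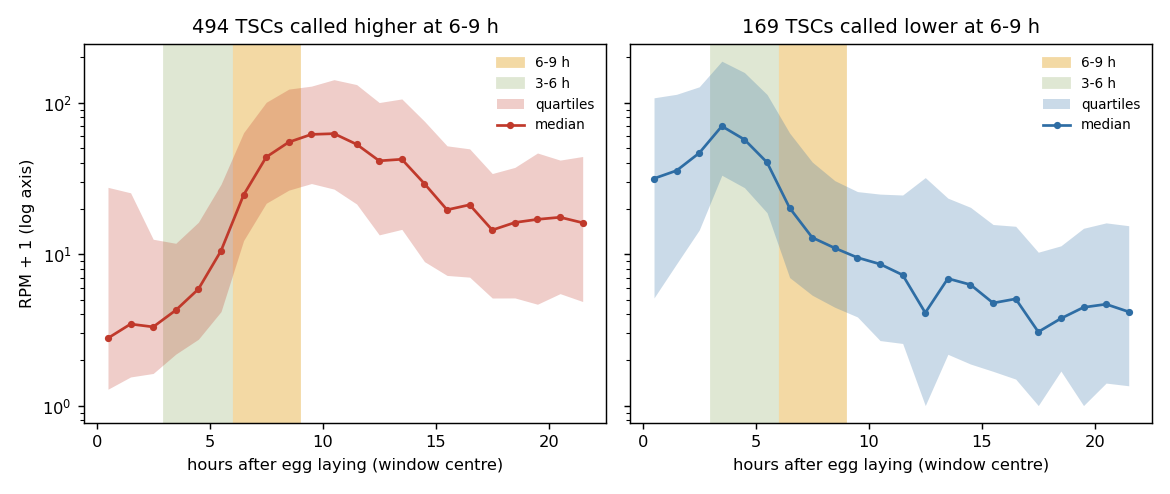
Median (line) and quartiles (band) of RPM + 1, on a log axis, are drawn at the centre of each of the 22 collection windows for the 494 TSCs called higher (left panel) and the 169 called lower (right panel) at 6-9 h, with the hours 6-9 h and 3-6 h shaded. The median of the higher set climbs through both blocks and stays up into 9-12 h, where the median of the block means is 59.3 RPM, and that of the lower set peaks at 3-4 h and lies below its levels of 3-6 h at every hour from 9 h on.

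Within the 6 hours, the changes of the called TSCs were spread over the course, with the largest step most often at the boundary that defined the calls. In 229 of the 494 TSCs called higher (46.4%) the largest increase between neighbouring hours was that into 6-7 h, and in 91 of the 169 called lower (53.8%) so was the largest decrease. Over all tested TSCs the largest step of either sign was into 6-7 h in 14.3%. It was into 4-5 h in 27.8%, into 5-6 h in 22.8%, into 7-8 h in 19.0% and into 8-9 h in 16.0%. The choice of calls favours a step into 6-7 h, so the shares of the called TSCs describe these TSCs and show no more than that. A level that moved in the called direction at every hour was found in 155 of the TSCs called higher (31.4%) and in 39 of those called lower (23.1%), against 5.64% that moved in 1 direction throughout among all tested TSCs. A linear term of hour in place of the block called 1927 TSCs, including 652 of the 663.

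The share of TSCs that rose differed between classes of promoters, as a description without a test. Of the 633 tested TSCs with a mean of at most 1 RPM at 0-3 h, 27.3% were called higher and 0.632% lower. Of the 4671 TSCs above 20 RPM at 0-3 h, 2.76% were called higher and 2.38% lower. TSCs that were near silent at 0-3 h could only enter the test by being active at 3-9 h. The shares of this class are therefore set in part by how it was formed.

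Some TSCs carry no gene in the TSC list of the authors and are called unassigned here. The gene table may still count their reads under a gene. On the placed chromosomes, 59 of the 601 tested unassigned TSCs (9.82%) were called higher and 11 (1.83%) lower, against 390 (5.87%) and 145 (2.18%) of the 6648 TSCs assigned to a gene. With a mean of at least 20 RPM the shares called higher were 12.5% of 271 unassigned TSCs and 5.32% of 4080 assigned TSCs. Between 5 and 20 RPM they were 7.58% of 330 and 6.74% of 2568, so that the classes lay closer together among the weaker TSCs. Median levels at 0-3 h also differed between these classes, at 5.50 RPM for unassigned and 32.3 RPM for assigned TSCs, and their part in the result was not tested.

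The unassigned TSC with the largest rise, at 2R:4738240-4738325 on the minus strand, gave 19.9, 96.5 and 427 RPM at 6-7, 7-8 and 8-9 h, against 1.19, 2.44 and 5.07 RPM at 3-4, 4-5 and 5-6 h. It went on to 1055 RPM at 10-11 h. At 3L:18150443-18150536 on the plus strand the values were 259, 681 and 547 RPM at 6-7, 7-8 and 8-9 h, against 9.05, 14.3 and 63.4 RPM at 3-4, 4-5 and 5-6 h. Each of these TSCs had a gene with nearly the same reads in the gene table, with absolute differences summed over the 22 hours of 4.17% and 1.96% of the reads of the TSC. They may thus be promoters of genes that the list does not give them.

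A narrow unassigned TSC of 26 bp at 2L:16074298-16074323 on the plus strand gave 10.4, 24.5 and 188 RPM at 6-7, 7-8 and 8-9 h. At 3-4, 4-5 and 5-6 h it gave 0.148, 0.697 and 1.90 RPM. The 3-4 h value was 1 read and the 4-5 h value 2 reads, under the floor of 3 reads. Its call was lost with a pseudocount of 5 RPM (limma adjusted p = 0.0532). Among unassigned TSCs that fell, the one at 3R:8941204-8941281 on the minus strand gave 4.00, 1.98 and 1.35 RPM at 6-7, 7-8 and 8-9 h, against 147, 16.4 and 12.7 RPM at 3-4, 4-5 and 5-6 h. Most of that fall took place within the earlier block, between 3-4 h and 4-5 h, and the call was lost under 4 alternatives (adjusted p from 0.0507 to 0.0699). At 2L:4691523-4691896 on the plus strand the values were 20.0, 11.1 and 8.40 RPM at 6-7, 7-8 and 8-9 h, against 218, 149 and 67.2 RPM at 3-4, 4-5 and 5-6 h, with a log2 fold change of -3.29 ± 0.48 (SE, limma adjusted p = 0.0231).

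A further falling unassigned TSC, at 3R:6326078-6326305 on the minus strand, gave 18.9, 5.93 and 2.24 RPM at 6-7, 7-8 and 8-9 h, against 30.6, 50.5 and 41.2 RPM at 3-4, 4-5 and 5-6 h. It was the only one of the 12 named falling TSCs whose earliest sample was the lowest of its block, and its call was lost under 4 alternatives (adjusted p from 0.0551 to 0.0801). On unplaced sequence, a TSC of 19 bp at X_random:5187448-5187466 fell to 1.29, 0.791 and 0.745 RPM at 6-7, 7-8 and 8-9 h, against 175, 63.7 and 24.7 RPM at 3-4, 4-5 and 5-6 h. Its 7-8 h value was 2 reads, under the floor of 3 reads. Of the 754 tested TSCs on unplaced sequence, 5.97% were called higher and 1.72% lower.

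**Figure D4:**
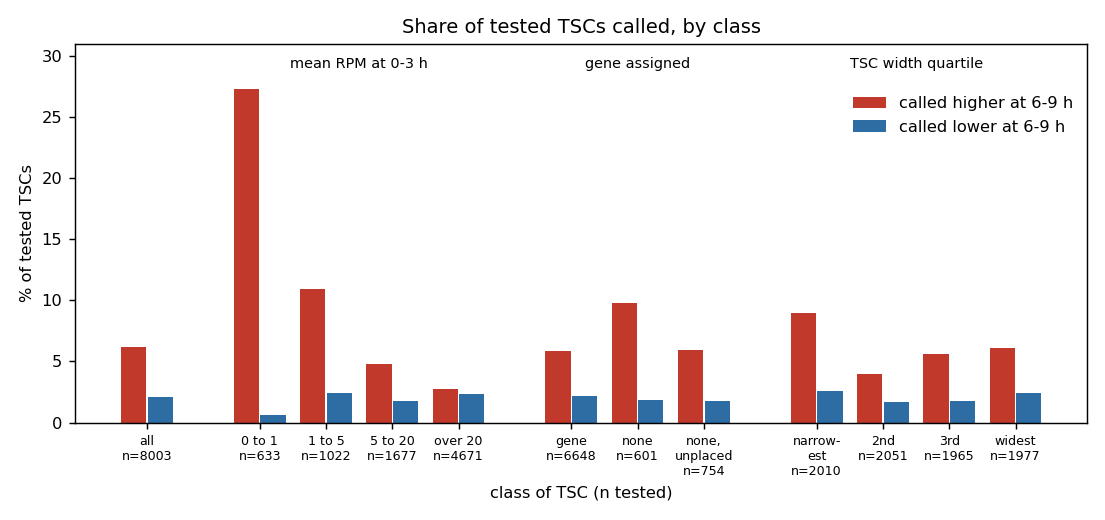
Bars, which start at 0, give the percent of tested TSCs called higher (left bar) and lower (right bar) at 6-9 h. They are drawn for all tested TSCs and by mean RPM at 0-3 h, by whether the TSC list gives a gene, and by quartile of TSC width. The number tested stands under each pair. The share called higher is 27.3% for TSCs of at most 1 RPM at 0-3 h and 2.76% for those above 20 RPM, and the shares called lower lie between 0.632% and 2.59% in these classes.

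Width also set the tested TSCs apart, again without a test, where a narrow TSC is one whose starts concentrate on few bases. In the narrowest quartile, with a width up to 78 bp, 8.96% were called higher and 2.59% lower, against 4.00%, 5.65% and 6.12% called higher in the wider quartiles in order of width. Widths and levels go together in this list, since the median level was 13.4 RPM in the narrowest quartile and 46.2 RPM in the widest. At a mean of at least 20 RPM the share called higher was 9.69% in the narrowest quartile and between 4.14% and 6.38% in the others, but between 5 and 20 RPM it was 8.55% in the narrowest and 9.57% in the third quartile. By chromosome, the share called higher ran from 5.32% on 2R to 6.90% on 2L, and the share called lower from 1.19% on X to 3.01% on 2L.

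In 5 genes, promoters were called in opposite directions. Of 756 genes with at least 2 tested TSCs, 117 had at least 1 TSC called and 18 had at least 2. Among all tested TSCs 8.28% were called, 6.17% higher and 2.11% lower. At such shares few genes can have TSCs called both ways, and whether 5 is few or many was not tested. In 10 of the 18 genes the called TSCs all rose, in 3 they all fell, and in 5 they changed in opposite directions, each TSC at least 2-fold. The count of 5 was the same after TMM scaling, was 3 with edgeR on recovered reads and was 23 with a linear term of hour, and 6 of the 10 TSCs called in these genes lost their call in a fit of all 22 samples. In these 5 genes the TSC that rose lay upstream of the one that fell in 2 genes and downstream in 3.

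In only 1 of the 5 genes did both TSCs have a mean of at least 20 RPM, and the other 4 are named because there were so few, after their values were seen. In that gene, on the plus strand of 3R, the upstream TSC at 3R:10813062-10813104 gave 18.9, 62.1 and 112 RPM at 6-7, 7-8 and 8-9 h, against 2.82, 2.09 and 4.44 RPM at 3-4, 4-5 and 5-6 h. The TSC at 3R:10814206-10814696, 1101 bp further down, gave 51.7, 22.6 and 15.9 RPM at 6-7, 7-8 and 8-9 h, against 111, 125 and 90.7 RPM at 3-4, 4-5 and 5-6 h. Their log2 fold changes were 3.70 ± 0.60 and -1.98 ± 0.42 (SE, limma adjusted p = 0.0231 and 0.0333), and the narrow upstream TSC overtook the broad one between 6-7 h and 7-8 h.

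On the plus strand of 3L, the TSC at 3L:2568358-2568469 gave 14.9, 34.4 and 48.9 RPM at 6-7, 7-8 and 8-9 h, against 8.30, 3.83 and 8.25 RPM at 3-4, 4-5 and 5-6 h. Its downstream partner at 3L:2571497-2571562 gave 19.9, 13.1 and 7.66 RPM at 6-7, 7-8 and 8-9 h, against 85.0, 55.7 and 36.8 RPM at 3-4, 4-5 and 5-6 h. RNA from the upstream TSC had averaged 65.8 RPM at 0-3 h, a time at which RNA loaded by the mother is also counted. The call of the upstream TSC was lost under 3 alternatives (adjusted p from 0.0505 to 0.0551). In a gene on the minus strand of 2L, the downstream TSC at 2L:4853093-4853132 rose to 12.6, 22.6 and 54.8 RPM at 6-7, 7-8 and 8-9 h, against 1.93, 3.14 and 2.54 RPM at 3-4, 4-5 and 5-6 h. The upstream TSC at 2L:4862245-4862355 fell to 17.8, 7.52 and 8.94 RPM at 6-7, 7-8 and 8-9 h, against 78.2, 58.2 and 25.4 RPM at 3-4, 4-5 and 5-6 h. A stronger TSC between them, at 2L:4856081-4856218, averaged 114 RPM at 6-9 h and 183 RPM at 3-6 h and did not pass the test (limma adjusted p = 0.269).

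In the gene with the highest levels of the 5, on the minus strand of 2L, the main TSC at 2L:5769133-5769432 gave 1818, 1193 and 1306 RPM at 6-7, 7-8 and 8-9 h, against 3724, 3178 and 2245 RPM at 3-4, 4-5 and 5-6 h. The downstream TSC at 2L:5761961-5762227 gave 2.59, 11.9 and 21.7 RPM at 6-7, 7-8 and 8-9 h, against 0.297, 0.348 and 0.634 RPM, or 2, 1 and 1 reads, at 3-4, 4-5 and 5-6 h. The main TSC stayed far above the rising one at all 6 hours, and its call, at a limma adjusted p of 0.0493, was lost under 6 alternatives (adjusted p from 0.0503 to 0.208). A TSC between them, at 2L:5768393-5768652, averaged 318 RPM at 6-9 h and 179.6 RPM at 3-6 h and did not pass the test (limma adjusted p = 0.0998). In the last gene, on the minus strand of 2R, the TSC at 2R:10960937-10960948 rose to 15.4, 29.7 and 16.9 RPM at 6-7, 7-8 and 8-9 h, against 1.19, 2.44 and 6.98 RPM at 3-4, 4-5 and 5-6 h. Its neighbour 242 bp upstream, at 2R:10961191-10961315, fell to 2.59, 1.58 and 1.02 RPM at 6-7, 7-8 and 8-9 h, against 19.1, 13.6 and 6.34 RPM at 3-4, 4-5 and 5-6 h, and at 5-6 h the pair was level within counting error, with 11 reads for the rising TSC and 10 for the falling one.

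**Figure D5:**
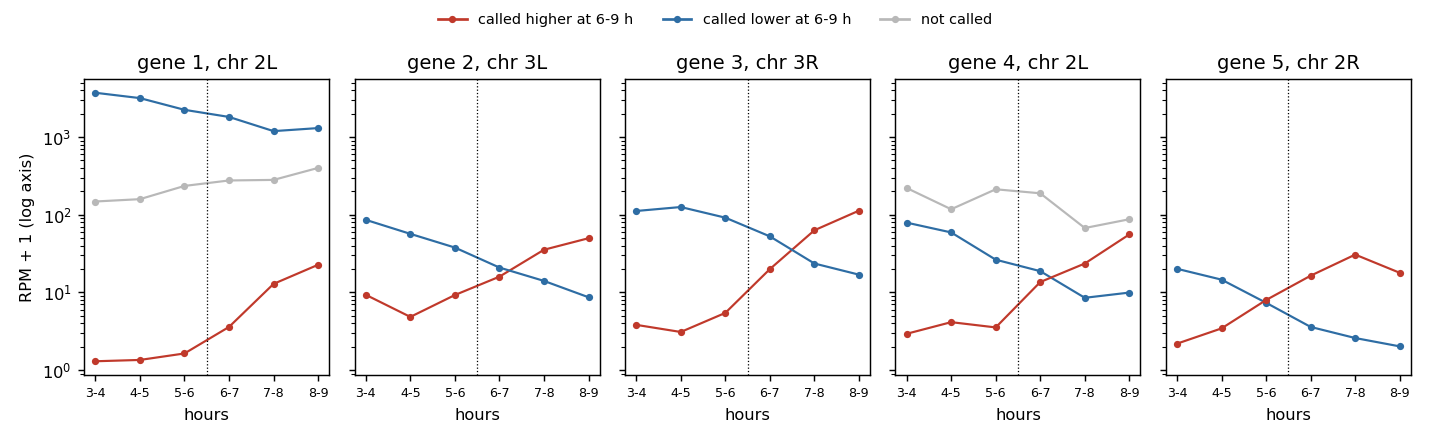
Each panel is 1 of the 5 genes with TSCs called in opposite directions and gives RPM + 1 of every tested TSC of that gene, on a log axis, at the 6 hours, with a dotted line between 3-6 h and 6-9 h. The TSC called higher and the one called lower cross in 4 genes, and in the first panel the falling TSC stays at or above 1193 RPM while the rising one reaches 21.7 RPM.

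In the gene table, which sums reads by gene under other gene numbers, 5479 of 8460 genes were tested. Of these, 384 (7.01%) were called, 293 higher (5.35%) and 91 lower (1.66%), with median log2 fold changes of 2.44 and -1.64. TMM scaling gave 243 higher and 127 lower, so that 65.7% of its calls were higher in place of 76.3%. Equal reads in all 22 samples tied 6228 genes to the TSCs of a single gene in the list. By that link, 182 of 190 linked genes called higher had a TSC called higher, and 73 of 74 linked genes called lower had a TSC called lower. Linked genes hold the same reads as their TSCs, so this match was largely fixed in advance and is no separate check. The rest of the calls could not be placed, and 4 called genes shared their counts with another gene and are uncertain.

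Of the named genes that rose and could be placed, 2 have promoters not described above. The gene whose strongest TSC lies at 3L:921893-922070 on the minus strand gave 96.8, 639 and 1683 RPM at 6-7, 7-8 and 8-9 h, against 9.89, 21.2 and 27.8 RPM at 3-4, 4-5 and 5-6 h, and averaged 10059 RPM at 9-12 h. The gene whose strongest TSC lies at X:531893-531994 on the minus strand gave 37.7, 123 and 788 RPM at 6-7, 7-8 and 8-9 h, against 1.62, 7.63 and 9.47 RPM at 3-4, 4-5 and 5-6 h, and averaged 2032 RPM at 9-12 h. Both rose further after the compared hours, and neither was called in a fit of all 22 samples (limma adjusted p = 0.130 and 0.0535). A gene that could not be placed gave 606, 929.5 and 848 RPM at 6-7, 7-8 and 8-9 h, against 79.9, 124 and 220.4 RPM at 3-4, 4-5 and 5-6 h. Of the falling genes, the one at 2R:2555785-2556110 on the minus strand gave 17.4, 6.68 and 2.89 RPM at 6-7, 7-8 and 8-9 h, against 175, 75.9 and 46.7 RPM at 3-4, 4-5 and 5-6 h. The one at 3R:13130099-13130204 on the plus strand gave 217, 82.1 and 46.9 RPM at 6-7, 7-8 and 8-9 h, against 416, 358 and 395 RPM at 3-4, 4-5 and 5-6 h, with a flat earlier block. The call of this gene was lost under 3 alternatives (adjusted p from 0.0640 to 0.236).

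None of 4 measures of library make-up passed a test between the blocks. Unassigned TSCs took 14.3% ± 0.57 of reads at 6-9 h and 13.5% ± 0.26 at 3-6 h (SD, n = 3 each), with no overlap between the blocks. An exact two-sided permutation test gave p = 0.1, the smallest that 3 against 3 samples allow, and 0.4 after adjustment over the 4 values tested. The 10 strongest TSCs took 11.5% ± 1.22 of reads at 6-9 h and 12.2% ± 0.70 at 3-6 h (exact permutation p = 0.5), and for the 100 strongest TSCs the difference was -2.98 percentage points (exact permutation p = 0.1, the smallest possible). At least 1 RPM was reached by 13420 ± 659 TSCs at 6-9 h and 12605 ± 513 TSCs at 3-6 h (exact permutation p = 0.2). At a level of at least 10 RPM the difference was 399 TSCs (exact permutation p = 0.1). TSCs on unplaced sequence took 9.07% ± 0.11 and 9.19% ± 0.15 of reads (exact permutation p = 0.4). In all, 15 TSCs were among the 10 strongest of any of the 6 hours, 5 of them in all 6. Of the 15, 1 was called, a count too small to set apart from the 8.28% called among all tested TSCs.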

How the data were processed

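The authors mapped RAMPAGE reads with STAR (version not given in the sources used here) to the FlyBase r1.4 genome, called TSCs on reads pooled over the series, removed peaks over rDNA repeats and deposited RPM per TSC and per gene for each sample. The deposited TSC list carries a score per TSC that no source explains and that was left out, and an aligned table of smoothed Z-scores was not used either, since smoothing shares values between the blocks. RPM values were whole multiples of 1 step per sample, and dividing by it gave whole reads for 100% of values (tolerance 0.1 read).

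Features with a mean of at least 5 RPM over the 6 samples were tested on log2(RPM + 1) with limma 3.58.1 (trend option, R 4.3.3) over the whole table, with Benjamini-Hochberg adjustment. This scale understates changes of weak TSCs. Reads recovered from RPM were tested with the quasi-likelihood test of edgeR 4.0.16, which called 537 TSCs (366 higher, 171 lower, 489 shared with limma) and 310 genes, and with DESeq2 1.42.0. Single values per sample were compared by exact permutation (scipy 1.17.1). The scripts were tested on simulated data.

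Named TSCs were, in each direction among called TSCs with blocks that did not overlap, the 6 with the largest change at a mean of at least 20 RPM, the 4 with the highest mean among those changed at least 4-fold, and the 3 unassigned TSCs on placed chromosomes with the largest change. Named genes followed the first 2 rules, and 5 of the 9 that rose and 1 of the 7 that fell had no linked TSC and are not placed. The comparison, lists and rules were chosen with earlier results of these data known. The list gives 546 TSCs at 269 positions under more than 1 gene, of which 203 were tested and 15, at 6 positions, called. No genome sequence was used. Each sample's shares have 95% Wilson half-widths below the SD between hours, and these intervals, like the floor of 3 reads, cover counting error only.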

Additional observations from a re-analysis of the deposited data

How the results depend on the processing

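Each of the 53 named and called TSCs and genes kept its direction under every alternative in which it was tested. They were chosen among the features called in these same samples, so a reversal was unlikely from the start and its absence is no separate check. Of 579 values of these features under the alternatives, leaving aside omitted hours, 530 passed the threshold and 49, in 27 features, did not. The count of called TSCs (663) became 1515 with DESeq2 (855 higher, 660 lower), 368 with a mean of at least 10 RPM and 1927 with a linear term of hour, and that of genes (384) became 974 with DESeq2 (537 higher, 437 lower), 208 with no filter and 1343 with a linear term of hour. Over omitted hours the count ran from 0 to 1075 for TSCs and from 0 to 663 for genes with limma, and from 0 to 994 and from 0 to 594 with edgeR (981 TSCs and 592 genes without 5-6 h), a check chosen after seeing the data. For both tables it was 0 without 7-8, 8-9, 3-4 or 4-5 h, and genes at an unadjusted p under 0.05 then numbered 970 to 1164 with limma. With each position counted once, also chosen after seeing the data, 654 of 7899 TSCs were called. Genes with opposite promoters numbered 3 with edgeR and 23 with a linear term of hour, also added after seeing the data. Between 6-9 h and 3-6 h, the difference ran over omitted hours from 0.484 to 1.01 percentage points for unassigned reads, from -1.27 to -0.08 for the 10 strongest TSCs, from 512.5 to 1166.5 TSCs of at least 1 RPM, and from -0.21 to -0.06 for unplaced sequence. No paired analysis was possible because the hours of the 2 blocks share no replicate number in the labels. Depth limits weak TSCs most at 5-6 h, where 1 read is worth 0.634 RPM.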

Other observations

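The most called TSCs starting within 50000 bp, at distinct positions on the placed chromosomes, was 4, in 1 stretch of chromosome 3R that was chosen for this count after its values were seen. It held 6 tested TSCs, and 8.28% of all tested TSCs were called. All 4 rose, lie on alternating strands and were assigned to different genes. The outermost, at 3R:25957498-25957518 on the minus strand, gave 26.0, 67.6 and 85.3 RPM at 6-7, 7-8 and 8-9 h, against 7.56, 14.6 and 14.6 RPM at 3-4, 4-5 and 5-6 h, and reached 3916 RPM at 21-22 h. At 3R:25977267-25977309 on the minus strand the values were 12.1, 68.4 and 106 RPM at 6-7, 7-8 and 8-9 h, against 0.890, 1.74 and 5.71 RPM at 3-4, 4-5 and 5-6 h. The TSC at 3R:25986260-25986326 on the plus strand gave 9.76, 49.8 and 137 RPM at 6-7, 7-8 and 8-9 h, against 0.297, 1.74 and 3.81 RPM at 3-4, 4-5 and 5-6 h. Its 3-4 h value was 2 reads, under the floor of 3 reads. A weak TSC at 3R:25961028-25961062 on the plus strand had 19, 41 and 177 reads at 6-7, 7-8 and 8-9 h, against 0, 1 and 0 reads at 3-4, 4-5 and 5-6 h. The highest hours of these TSCs ranged from 7-8 h to 21-22 h. The call at 3R:25957498-25957518 was lost in a fit of all 22 samples (limma adjusted p = 0.509). That at 3R:25961028-25961062 was lost with a pseudocount of 5 RPM (limma adjusted p = 0.0572). With reads thinned to equal depth, the call at 3R:25977267-25977309 was lost (limma adjusted p = 0.0504).

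Neighbouring promoters that point away from each other showed little relation in their changes. In 869 pairs of tested TSCs of different genes, on opposite strands and at most 500 bp apart, the log2 fold changes had a Pearson r of 0.08 and a Spearman rho of 0.06 across pairs, and 51.0% of the pairs had the same sign. At least 1 TSC was called in 74 pairs and both in 3, which all moved in the same direction. Of the 1738 members of these pairs, 4.43% were called, against 8.28% of all tested TSCs. In 93 pairs that included an unassigned TSC, r was 0.23 and rho 0.26, 6 pairs had a called TSC and 0 had both called. Paired TSCs share libraries, a TSC can stand in more than 1 pair, and these values are a description across TSCs, which are not independent replicates.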
